A study of Mus musculus with 24 samples.

Results

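The comparison described here sets Atf4 knockout against wild-type mouse embryonic cortical neurons that received control treatment, on the 1 BeadChip that holds nothing else. It takes in 8 of the 24 arrays of the series, which are wild-type arrays 1 to 4 and knockout arrays 1 to 4, chosen by their titles. The other 16 arrays lie on 2 further BeadChips (chips 2 and 3) and hold 4 untreated and 4 HCA-treated samples of each genotype, where HCA is the treatment name given in the labels. The 8 untreated arrays of chips 2 and 3 served as a repeat, and HCA-treated arrays entered only alternatives named as holding all 24 arrays. All samples are total RNA of primary cells hybridised to Illumina mouse Ref-8 arrays, on which a probe's brightness stands for the abundance of a transcript. The labels do not give the knockout allele, the strain, the embryonic age or whether replicates were separate cultures, so a p-value measures only the spread between these arrays.

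ATF4 is a basic leucine zipper transcription factor whose mRNA is translated when the initiation factor eIF2 is phosphorylated, the step shared by amino acid shortage, endoplasmic reticulum stress, heme deficiency and viral infection. This pathway is called the integrated stress response. With partners of the C/EBP family, ATF4 binds composite C/EBP-ATF elements and activates genes for amino acid uptake, amino acid synthesis, one-carbon metabolism and tRNA charging. In cultured cortical neurons ATF4 has been studied mainly for its part in death under oxidative stress.

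On chip 1 the detected share of probes was 44.3% to 47.9% per array and the mean raw brightness was 745 to 983, against 37.4% to 42.7% and 296 to 669 on the untreated arrays of chips 2 and 3. The number of arrays, 4 per genotype, limits the precision. Wild type occupied the first 4 positions of the chip and knockout the last 4, so genotype and array position cannot be told apart there, while on chips 2 and 3 both genotypes are spread over both chips. Wild-type array 2 stood apart, with a residual SD of 0.28 on the log2 scale against 0.18 to 0.23 on the other 7 arrays. The Y-linked Eif2s3y was detected on wild-type arrays 1 and 3 of chip 1 and not on wild-type arrays 2 and 4 or on the 4 knockout arrays, and Kdm5d followed the same pattern. On chips 2 and 3 both genes were detected on all 4 knockout arrays and on wild-type arrays 5 and 8, but not on wild-type arrays 6 and 7. Signal of Y-linked genes thus differed between the genotypes in both array sets, in opposite directions, and its part in the results was not tested beyond leaving out those wild-type arrays.

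The targeted gene separated the genotypes. Atf4 read 10.93, 10.38, 11.05 and 10.88 on the 4 wild-type arrays and 4.62, 4.80, 4.69 and 4.60 on the 4 knockout arrays, in normalized log2 intensity. The probe was not well above background on any knockout array, so the difference is a bound, at least 30.1-fold lower in knockout (adjusted p = 6.2e-08, limma with Benjamini-Hochberg adjustment over all genes). On chips 2 and 3 it was again detected on 4 of 4 wild-type and 0 of 4 knockout arrays.

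Few other genes differed, and those that did were mostly lower in knockout. Of 8269 genes tested on chip 1, 31 were called at an adjusted p under 0.05, which is 0.375%. Of these, 28 (0.339% of the genes tested) were lower in knockout and 3 (0.0363%) were higher, and 29 differed by 1.5-fold or more. In each of the 31 the 4 knockout arrays lay entirely on one side of the 4 wild-type arrays, a separation found in 5.74% of all genes tested (2.6% with knockout lower and 3.14% with knockout higher). The smallest difference called was 0.51 on the log2 scale, and 686 genes (8.3%) had an unadjusted p under 0.05, lower in knockout for 4.32% and higher for 3.98% of the genes tested. The count fell to 17 without wild-type array 1, 17 without wild-type array 4 and 14 without knockout array 4. Calls held without any 1 array for 14 genes, which were Atf4, Slc7a3, Chac1, Psmd8, Rps19bp1, Pop4, Mgat3, Slc7a5, Atf5, Asns, Mcat, Mthfd2, Nup50 and Slc25a17, and each of the other 17 lost its call without at least 1 array. Without wild-type arrays 1 and 3, the 2 with Y-linked signal, 16 genes were called.

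**Figure D1:**
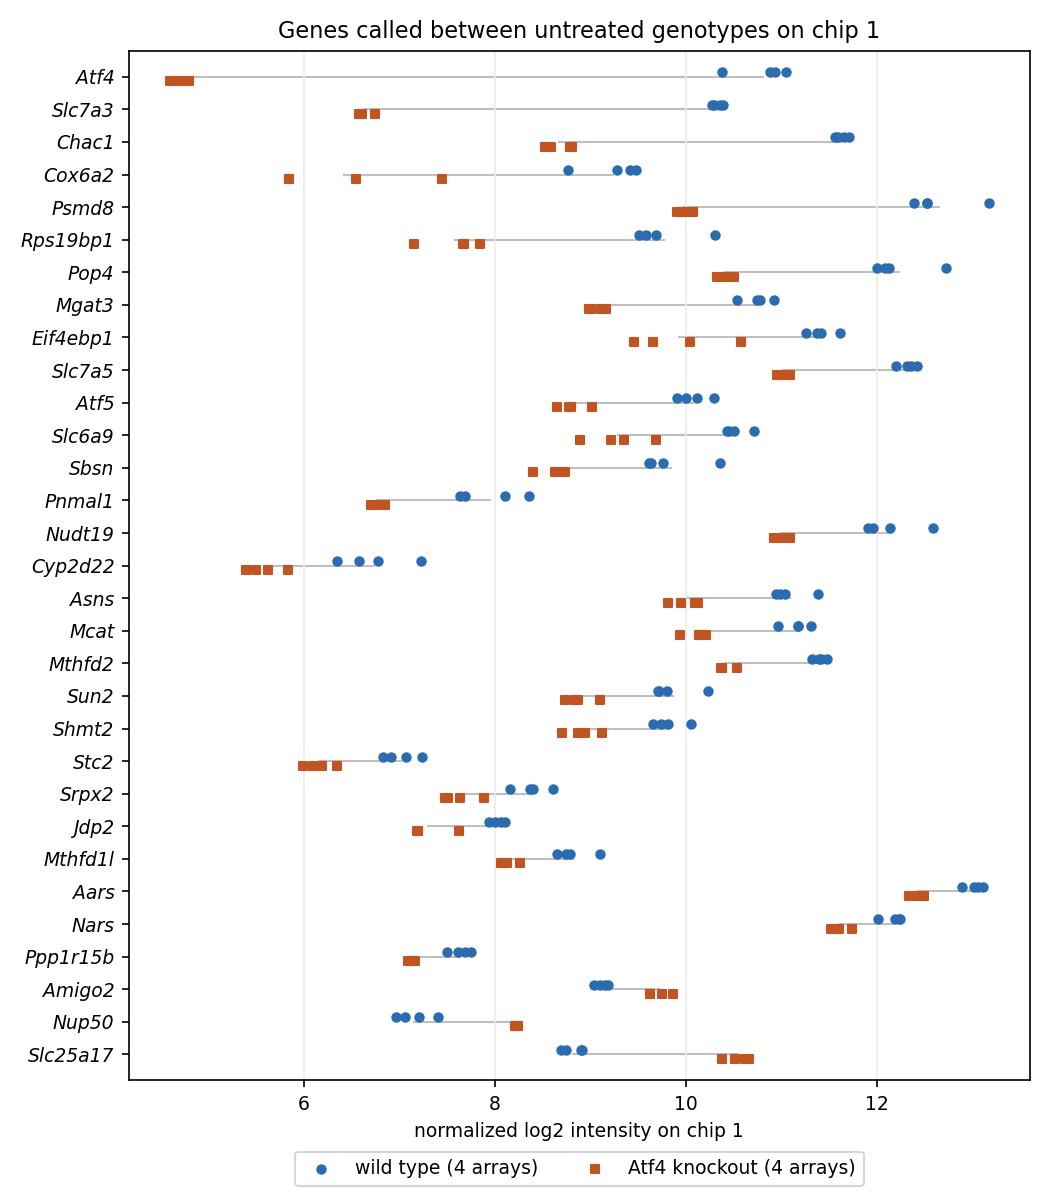
Normalized log2 intensity (horizontal axis) of the 31 called genes on each of the 8 arrays of chip 1, wild type as circles and Atf4 knockout as squares, with a line joining the genotype means. In 28 genes the squares lie to the left of the circles and in 3, Amigo2, Nup50 and Slc25a17, to the right.

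Regulators of the integrated stress response were the functional list with the most called genes. Of 19 such genes tested, 6 fell in knockout and none rose, where 0.339% of all genes tested fell. Under the alternative settings 2 to 6 genes of the list were called lower. This and the other gene lists were chosen with earlier results of these data known, so such shares describe the lists and do not test them. In this list 17 of the 19 differences were below 0, with a median of -0.51 against 0.01 over all genes. Chac1, which breaks down glutathione, read 11.65, 11.70, 11.56 and 11.59 in wild type and 8.80, 8.79, 8.58 and 8.53 in knockout. It was 7.74-fold lower (log2 difference -2.95, SE 0.09, adjusted p = 3.56e-07), and the 2 genotypes were more than 2 log2 units apart on every pair of arrays.

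Eif4ebp1, a brake on cap-dependent translation, read 11.37, 11.62, 11.26 and 11.42 in wild type and 9.45, 9.65, 10.57 and 10.04 in knockout, a 2.80-fold fall (adjusted p = 0.0318). Its knockout arrays were spread over more than 1 log2 unit, and the highest of them stayed below the lowest wild-type array. Atf5, a transcription factor of the ATF family, read 10.11, 10.29, 9.90 and 10.00 in wild type and 8.65, 8.79, 9.01 and 8.78 in knockout (2.41-fold lower, adjusted p = 0.00114). The smaller falls in this group were in Stc2, a secreted glycoprotein (-0.86, adjusted p = 0.0179), Jdp2, a repressor of AP-1 sites (-0.72, adjusted p = 0.0404), and Ppp1r15b, the constitutive phosphatase subunit that acts on eIF2 (-0.51, adjusted p = 0.0318). The calls of Eif4ebp1, Jdp2 and Ppp1r15b were each lost in 7 of the 8 fits that left out 1 array. Cebpb, a C/EBP partner of ATF4, had 9.31, 10.03, 9.45 and 9.37 in wild type and 8.73, 8.83, 8.81 and 8.73 in knockout, with no overlap, yet did not pass (adjusted p = 0.141). The gene of the stress factor CHOP, Ddit3, read 9.59, 9.33, 9.72 and 9.53 against 9.24, 9.18, 9.27 and 8.60 and did not pass either (-0.47, adjusted p = 0.456). Nupr1 (-1.21, adjusted p = 0.339) and Herpud1 (-0.64, adjusted p = 0.231) had larger differences without a call. Trib3 and Atf3 were detected on fewer than 4 arrays of chip 1 and were not tested.

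Part of the genes of amino acid synthesis and one-carbon metabolism fell in knockout. Of 13 tested, 4 fell (against 0.339% of all genes tested), none rose, and 12 differences were below 0, with a median of -0.49. Asns, which makes asparagine, read 10.94, 11.04, 10.98 and 11.38 in wild type and 10.09, 9.95, 9.81 and 10.13 in knockout (2.13-fold lower, adjusted p = 0.00491). A further probe of Asns gave -0.99. Mthfd2, a mitochondrial folate enzyme, read 11.47, 11.39, 11.31 and 11.41 against 10.37, 10.38, 10.54 and 10.38 (1.98-fold lower, adjusted p = 0.000413), and the 4 arrays of each genotype lay close together.

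The mitochondrial serine hydroxymethyltransferase Shmt2 read 9.74, 10.05, 9.65 and 9.81 against 8.87, 9.12, 8.94 and 8.70 (-0.90, adjusted p = 0.0152). Mthfd1l, which completes the mitochondrial folate branch to formate, read 9.09, 8.74, 8.78 and 8.64 against 8.10, 8.07, 8.27 and 8.13 (-0.68, adjusted p = 0.0430). Its call was lost whichever array was left out. Psat1, the aminotransferase of serine synthesis, read 10.94, 10.65, 10.83 and 10.77 in wild type and 9.85, 10.22, 10.38 and 10.37 in knockout. These do not overlap, but the difference of -0.59 (SE 0.13) did not pass on chip 1 (adjusted p = 0.175). Phgdh, the first enzyme of that pathway, gave -0.59 (adjusted p = 0.435).

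Among 12 amino acid transporters tested, 3 fell (against 0.339% of all genes tested) and none rose, while the median of the list was -0.06. Slc7a3, a carrier of cationic amino acids, read 10.29, 10.36, 10.39 and 10.28 in wild type and 6.75, 6.61, 6.60 and 6.58 in knockout. It was 13.0-fold lower (log2 difference -3.70, SE 0.07, adjusted p = 2.62e-08) and had the smallest adjusted p on the chip. Slc7a5, the light chain of the LAT1 exchanger of large neutral amino acids, read 12.41, 12.36, 12.31 and 12.20 against 11.05, 10.98, 11.09 and 10.95 (2.47-fold lower, adjusted p = 5.74e-05). Its heavy chain Slc3a2 read 11.84, 11.47, 11.92 and 11.85 against 11.21, 11.14, 11.02 and 11.04 and just missed the threshold (-0.67, adjusted p = 0.0537). Slc6a9, the glycine transporter GlyT1, read 10.45, 10.71, 10.43 and 10.51 against 8.88, 9.22, 9.69 and 9.35 (2.36-fold lower, adjusted p = 0.0152). Slc1a4 (-0.53, adjusted p = 0.0933) and Slc38a1 (0.39, adjusted p = 0.434) did not pass. Slc7a11, the cystine carrier, was detected on fewer than 4 arrays and was not tested.

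Of 13 cytosolic tRNA synthetases, which charge tRNAs with amino acids, 2 fell (against 0.339% of all genes tested) and none rose, with a median of -0.11. Aars, for alanine, read 13.05, 12.89, 13.01 and 13.11 against 12.49, 12.43, 12.47 and 12.34 (-0.59, SE 0.08, adjusted p = 0.0152), while a further Aars probe gave -0.08. Nars, for asparagine, gave -0.55 (adjusted p = 0.0329). Of the 8 fits that left out 1 array, the call of Nars was lost in 7 and that of Aars in 5. Cars, for cysteine, had a larger difference of -1.26 but an SE of 0.61 and was not called. Its wild-type array 2 read 7.16 beside 9.30 to 9.58 on the other wild-type arrays. Of 11 mitochondrial tRNA synthetases none was called and the median was 0.01.

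The promoters of the called genes were searched for the letters TGATGNAA on both strands, the core of a C/EBP-ATF element, in the RefSeq sequence from 250 bases before to 50 after the start site (build GRCm38.p6). Of 18 genes called lower that have such a promoter, 4 (22.2%) hold the motif, against 178 of 6752 tested genes (2.64%). All 4 belong to the stress and amino acid lists above. They are printed 5′ to 3′ on the gene's strand, with each match in capitals, to show where it lies, counted in bases from the start site: at -193 in Chac1 (chr2:119350992-119351291, plus strand), at -23 in Asns (chr6:7693160-7693459, minus strand), at -33 in Jdp2 (chr12:85599166-85599465, plus strand), and in Aars (chr8:111033592-111033891, plus strand) at both -112 and 9.
Chac1: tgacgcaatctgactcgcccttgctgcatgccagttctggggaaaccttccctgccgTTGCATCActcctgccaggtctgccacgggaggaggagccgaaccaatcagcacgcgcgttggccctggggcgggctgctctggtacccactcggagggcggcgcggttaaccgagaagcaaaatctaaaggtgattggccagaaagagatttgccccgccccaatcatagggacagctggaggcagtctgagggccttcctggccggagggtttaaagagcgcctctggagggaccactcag
Asns: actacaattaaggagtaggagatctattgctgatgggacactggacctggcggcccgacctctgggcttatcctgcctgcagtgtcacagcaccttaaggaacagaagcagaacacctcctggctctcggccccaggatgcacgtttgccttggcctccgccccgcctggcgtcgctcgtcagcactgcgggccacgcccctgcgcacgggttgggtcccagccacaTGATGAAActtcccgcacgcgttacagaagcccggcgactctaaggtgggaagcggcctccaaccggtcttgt
Jdp2: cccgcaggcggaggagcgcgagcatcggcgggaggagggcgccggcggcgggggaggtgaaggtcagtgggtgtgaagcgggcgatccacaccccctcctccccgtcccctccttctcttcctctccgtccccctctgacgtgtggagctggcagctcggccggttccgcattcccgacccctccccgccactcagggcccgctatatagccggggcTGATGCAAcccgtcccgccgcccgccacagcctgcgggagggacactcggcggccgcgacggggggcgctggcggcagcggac
Aars: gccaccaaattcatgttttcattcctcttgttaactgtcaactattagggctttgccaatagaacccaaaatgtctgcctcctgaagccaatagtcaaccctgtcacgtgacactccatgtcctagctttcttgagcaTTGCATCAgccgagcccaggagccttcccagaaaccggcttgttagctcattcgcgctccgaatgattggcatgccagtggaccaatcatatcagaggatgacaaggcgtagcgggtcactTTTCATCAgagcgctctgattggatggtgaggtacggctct
A match here is a description of letters and not evidence of binding.

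A further set of called genes lay on chromosome 15, which carries Atf4. Of 352 genes tested there 9 were called (2.56%), against 0.375% of all genes, and they include all 3 genes that rose. Slc25a17, a peroxisomal membrane carrier 11 protein-coding genes after Atf4, read 8.75, 8.90, 8.69 and 8.91 in wild type and 10.51, 10.38, 10.62 and 10.66 in knockout, a 3.31-fold rise (adjusted p = 4.35e-05). Rps19bp1, the gene next after Atf4, read 9.51, 10.30, 9.58 and 9.68 against 7.68, 7.84, 7.67 and 7.15 (4.54-fold lower, adjusted p = 0.00157). Mgat3, a glycosyltransferase 2 genes before Atf4, read 10.74, 10.53, 10.92 and 10.78 against 9.10, 8.98, 9.01 and 9.17 (3.20-fold lower, adjusted p = 5.74e-05).

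Mcat, an enzyme of mitochondrial fatty acid synthesis, read 11.18, 11.31, 10.96 and 11.18 against 10.13, 10.15, 10.20 and 9.94 (2.07-fold lower, adjusted p = 0.00157), with -0.34 on a further probe. Nup50, a nuclear pore protein, read 7.05, 7.20, 7.40 and 6.96 against 8.24, 8.21, 8.22 and 8.24 (2.11-fold higher, adjusted p = 0.00157), but 2 further probes detected on all 8 arrays gave 0.02 and 0.03. The probes of Nup50 therefore disagree, and the rise belongs to 1 of them. Sun2, a nuclear envelope protein, fell by 0.98 on the log2 scale (adjusted p = 0.0197), and the adhesion protein Amigo2 rose by 0.59 (adjusted p = 0.0179). The cytochrome P450 Cyp2d22 fell by 1.14 (adjusted p = 0.0452), where the size rests on values near background, since it was detected on 1 of 4 knockout arrays. The 9 genes run from Sun2, 13 genes before Atf4, to Amigo2, 173 after it. Within that run 94 genes were tested and 9.57% of them, Atf4 included, were called. The ends of the run were set at called genes, so this share is high by construction and is not a test. Of the 20 entries of any kind on each side of Atf4 in the RefSeq gene table, noncoding genes included, 10 genes were tested and 2 fell, Mgat3 and Rps19bp1, and Pdgfb had a difference of 1.06 that did not pass (adjusted p = 0.0931).

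**Figure D2:**
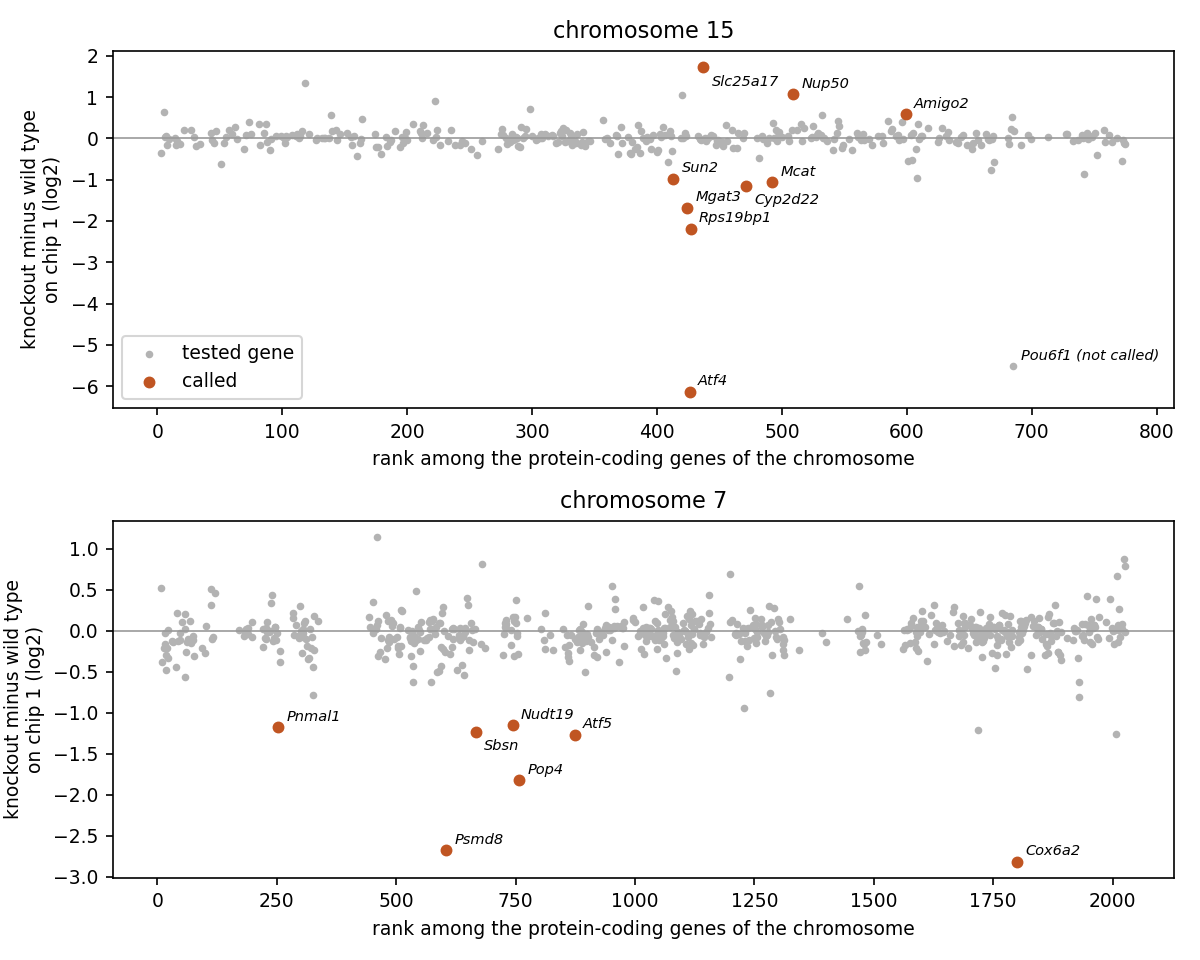
Log2 difference, knockout minus wild type on chip 1 (vertical axis), of the tested genes of chromosomes 15 and 7 by their rank among the protein-coding genes of the chromosome (horizontal axis), called genes in colour. The 9 called genes of chromosome 15 lie from Sun2 to Amigo2 around Atf4, and 5 of the 7 on chromosome 7 lie from Pnmal1 to Pop4.

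On chromosome 7, 7 of 657 genes tested were called (1.07%), all lower, and on all chromosomes other than 7 and 15 together 15 of 7260 (0.207%). Psmd8, a subunit of the proteasome's regulatory particle, read 12.52, 12.53, 12.38 and 13.17 in wild type and 9.90, 9.92, 10.00 and 10.07 in knockout. It was 6.39-fold lower (log2 difference -2.68, SE 0.16, adjusted p = 7.33e-05) and the only one of 25 proteasome subunits called. Pop4, a subunit of ribonuclease P, read 12.13, 12.08, 11.99 and 12.72 against 10.32, 10.39, 10.42 and 10.50 (3.54-fold lower, adjusted p = 0.000889).

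Nudt19, a Nudix hydrolase, read 11.95, 12.13, 11.91 and 12.58 against 10.95, 11.03, 11.09 and 10.92 (2.21-fold lower, adjusted p = 0.0141), and its further probe gave -0.76. Sbsn, which encodes suprabasin, read 9.63, 9.75, 9.61 and 10.36 against 8.74, 8.68, 8.62 and 8.39 (2.34-fold lower, adjusted p = 0.0196). Pnmal1 read 7.68, 7.64, 8.10 and 8.35 against 6.80, 6.70, 6.72 and 6.85 (2.26-fold lower, adjusted p = 0.0175). In all 5 of these genes wild-type array 4 was the highest array, and the call of Nudt19 was lost without knockout array 4, that of Sbsn in 6 of the 8 fits that left out 1 array and that of Pnmal1 in 5. The 5 genes span 505 protein-coding genes of the chromosome, of which 157 were tested and 3.18% called. The ends of this span are called genes too, so its share is also raised by construction. Atf5 and Cox6a2 lie further along.

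Cox6a2, an isoform of a cytochrome c oxidase subunit known from heart and muscle, read 9.47, 8.76, 9.28 and 9.42 in wild type and 5.85, 7.45, 5.84 and 6.54 in knockout, where it was detected on 2 of 4 arrays. The fitted difference was 7.03-fold (adjusted p = 0.0128), a size that rests partly on the undetected arrays, and no other of the 38 respiratory chain and ATP synthase genes tested was called. Srpx2, a secreted sushi-repeat protein, read 8.37, 8.61, 8.16 and 8.40 against 7.47, 7.88, 7.64 and 7.50 (-0.76, adjusted p = 0.0491).

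The largest difference without a call was in Pou6f1, a POU-domain transcription factor on chromosome 15. It read 12.07, 12.01, 12.22 and 11.28 on the wild-type arrays, 11.34 on knockout array 1, and 4.73, 4.74 and 4.77 on knockout arrays 2 to 4, where it was not detected. One knockout array thus lay among the wild-type arrays, and the difference of -5.50 had an SE of 1.37 (adjusted p = 0.278). On chips 2 and 3 Pou6f1 was detected on 0 of 8 arrays. It lies 259 protein-coding genes after Atf4.

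The same comparison on chips 2 and 3, which shares no array with chip 1, called 1493 of the 8269 genes (18.1%), 808 lower (9.77%) and 685 higher (8.28%), so the lower share of calls was 54.1%. When arrays were centred on their medians in place of quantile normalization, 211 were called there, 77.3% of them lower. Of the 31 genes called on chip 1, 26 had the same sign on chips 2 and 3 and 22 were also called there in that direction. Atf4 was at least 11.8-fold lower there, a bound as on chip 1. Slc7a3 gave -2.98 and Cox6a2 -2.79, with 2 and 1 of the 4 knockout arrays detected, so these sizes rest partly on background values. Chac1 gave -2.38, Slc7a5 -1.70, Atf5 -1.51, Asns -1.17, Mgat3 -1.43, Rps19bp1 -1.27 and Slc25a17 1.49. Cyp2d22, among the 26, was detected on none of those 8 arrays. The 5 genes of opposite sign were the run on chromosome 7, Psmd8 (0.40 on chips 2 and 3), Sbsn (0.57), Pop4 (0.01), Pnmal1 (0.01) and Nudt19 (0.05). Only Sbsn was called there, and the differences of Pop4, Pnmal1 and Nudt19 were smaller than their SE. In the other direction, 1074 of the 1493 genes called on chips 2 and 3 had the same sign on chip 1 and 168 of them had an unadjusted p under 0.05 there. Over all genes tested, 8.3% had an unadjusted p under 0.05 on chip 1 in either direction. The share of all genes with the same sign in both sets was not computed. These counts are therefore not read as a repeat.

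**Figure D3:**
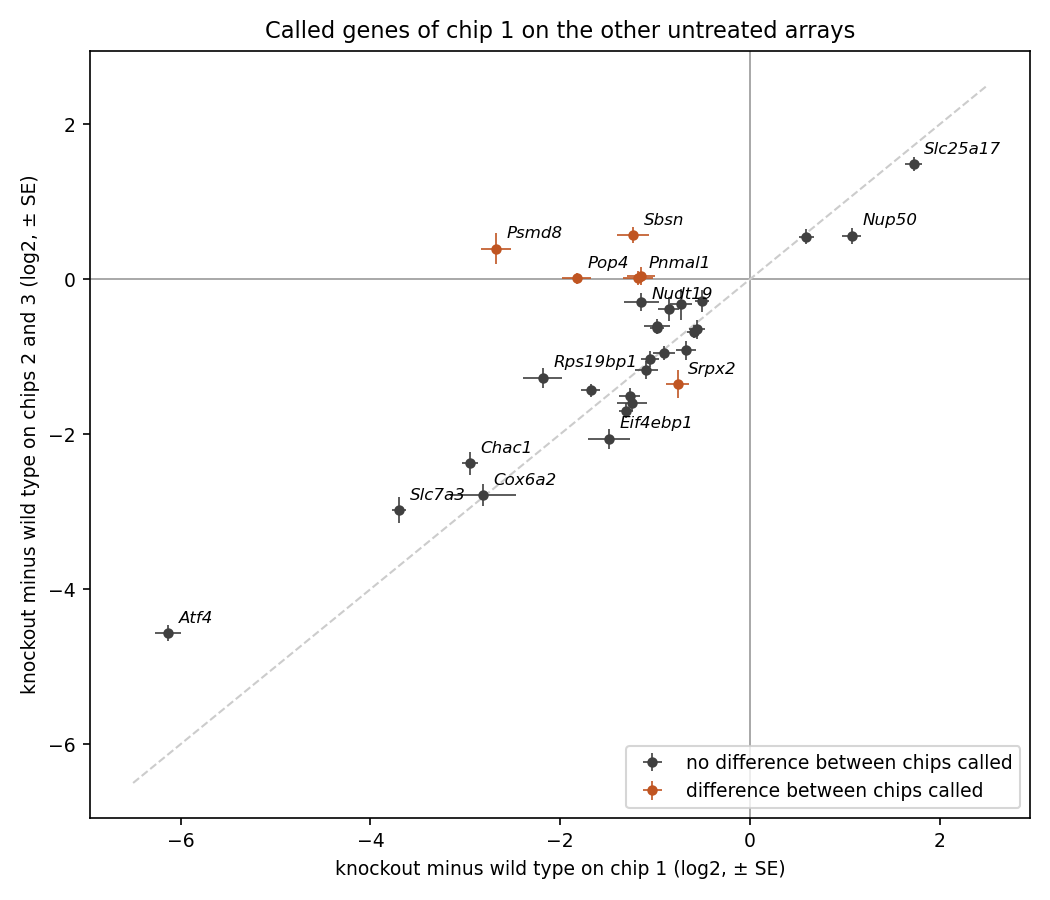
Log2 difference, knockout minus wild type, of the 31 called genes on chip 1 (horizontal axis) and on chips 2 and 3 (vertical axis), with standard errors as bars and a dashed line of equality. The genes in colour, Psmd8, Sbsn, Pop4, Pnmal1, Nudt19 and Srpx2, are the 6 whose difference itself differed between the array sets. On chips 2 and 3 the knockout values of Atf4, Srpx2, Ppp1r15b and Cyp2d22 lie at background, so their vertical positions do not measure a size.

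The difference on chip 1 minus that on chips 2 and 3 was tested in 1 fit of the 16 untreated arrays, normalized together. Its values therefore need not equal the gap between the values of the array sets normalized separately. The fit called 387 genes (4.68%), 120 (1.45%) with a lower and 267 (3.23%) with a higher difference on chip 1. The counts were 13 under median centring, 224 with the replicate block, 241 without wild-type array 4, 254 without knockout array 3 and 63 without wild-type arrays 1, 3, 6 and 7. Of the 31 genes called on chip 1, 6 were among the 387. Psmd8 differed by -3.04 between the array sets (adjusted p = 0.000355) and Pop4 by -1.81 (adjusted p = 0.000355). On chips 2 and 3 Psmd8 read 10.93 and 10.95 on wild-type arrays 6 and 7 and 11.68 to 11.77 on the other 6 arrays. Sbsn was called in both sets with opposite signs, at -1.23 on chip 1 and 0.57 on chips 2 and 3 (adjusted p = 0.00766), and the difference was -1.78 (adjusted p = 0.000797). Nudt19 (-1.20, adjusted p = 0.00646), Pnmal1 (-1.04, adjusted p = 0.00899) and Srpx2 (1.03, adjusted p = 0.0401) were the others. Under median centring Nudt19 gave -1.36 (adjusted p = 0.0763) and Pnmal1 -1.26 (adjusted p = 0.107), no smaller but without a call, and Srpx2 gave 0.61 (adjusted p = 0.888). Srpx2 was detected on 0 of 4 knockout arrays of chips 2 and 3, and its call between the sets was lost in 6 of the 8 fits that left out 1 array of chip 1.

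**Figure D4:**
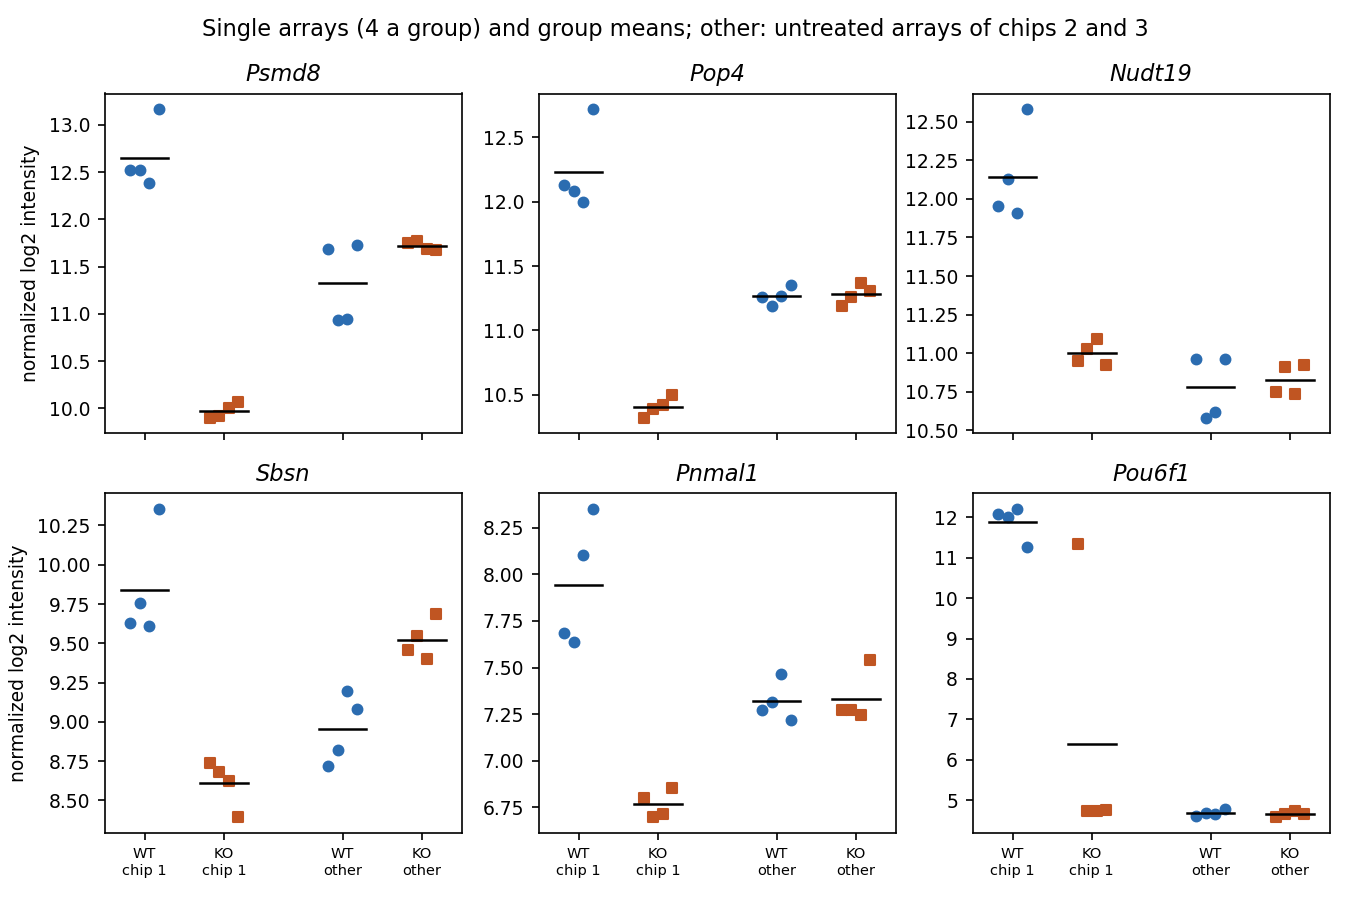
Normalized log2 intensity (vertical axis) of 6 genes on the 16 untreated arrays by genotype (WT wild type, KO Atf4 knockout) and array set, where other stands for chips 2 and 3, with bars for group means. The array sets were normalized separately, so levels are compared within a set: Psmd8, Pop4, Nudt19, Sbsn and Pnmal1 separate the genotypes on chip 1, and Pou6f1 was detected on chip 1 and on no array of chips 2 and 3.

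Several groups that were lower in knockout on chips 2 and 3 showed no call on chip 1. Over all genes tested, 9.77% were called lower on chips 2 and 3 and 0.339% on chip 1. Of 18 genes of cholesterol synthesis none was called on chip 1 and the median was -0.03, against 15 lower and a median of -0.85 on chips 2 and 3. Mvd, an enzyme of the mevalonate pathway, gave -0.12 on chip 1 and -1.77 on chips 2 and 3, a difference of 1.85 (adjusted p = 0.000355). Of 21 cell division genes none was called on chip 1 (median -0.12), against 20 lower on chips 2 and 3 (median -1.02). The anaphase activator Cdc20 gave -0.37 (adjusted p = 0.302) and -1.15. Of 11 endoplasmic reticulum chaperone and degradation genes none was called on chip 1 (median -0.00), against 9 lower on chips 2 and 3 (median -0.63). The chaperone Hspa5 gave 0.42 (adjusted p = 0.456) and -0.64, and Hsp90b1 -0.00 and -1.03. Hspa5 was detected on 2 of 4 wild-type arrays of chip 1 and on 2 of 4 knockout arrays of chips 2 and 3. Both of its values, and its difference between the sets, thus rest partly on background values.

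The difference between the array sets was called for 10 of 18 cholesterol, 14 of 21 cell division and 7 of 11 chaperone genes, against 4.68% of all genes tested. Under median centring it was called for 1, 0 and 0 of them, with median differences of 0.70, 0.76 and 0.61. Psat1 and Phgdh also differed between the sets. Psat1 gave -1.76 on chips 2 and 3 (difference 1.23, adjusted p = 0.00124), and 1.02 without a call under median centring (adjusted p = 0.286). Phgdh was detected on 0 of 4 knockout arrays of chips 2 and 3, where it was at least 1.95-fold lower, and the fitted difference between the sets was 1.53 (adjusted p = 0.00512).

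**Figure D5:**
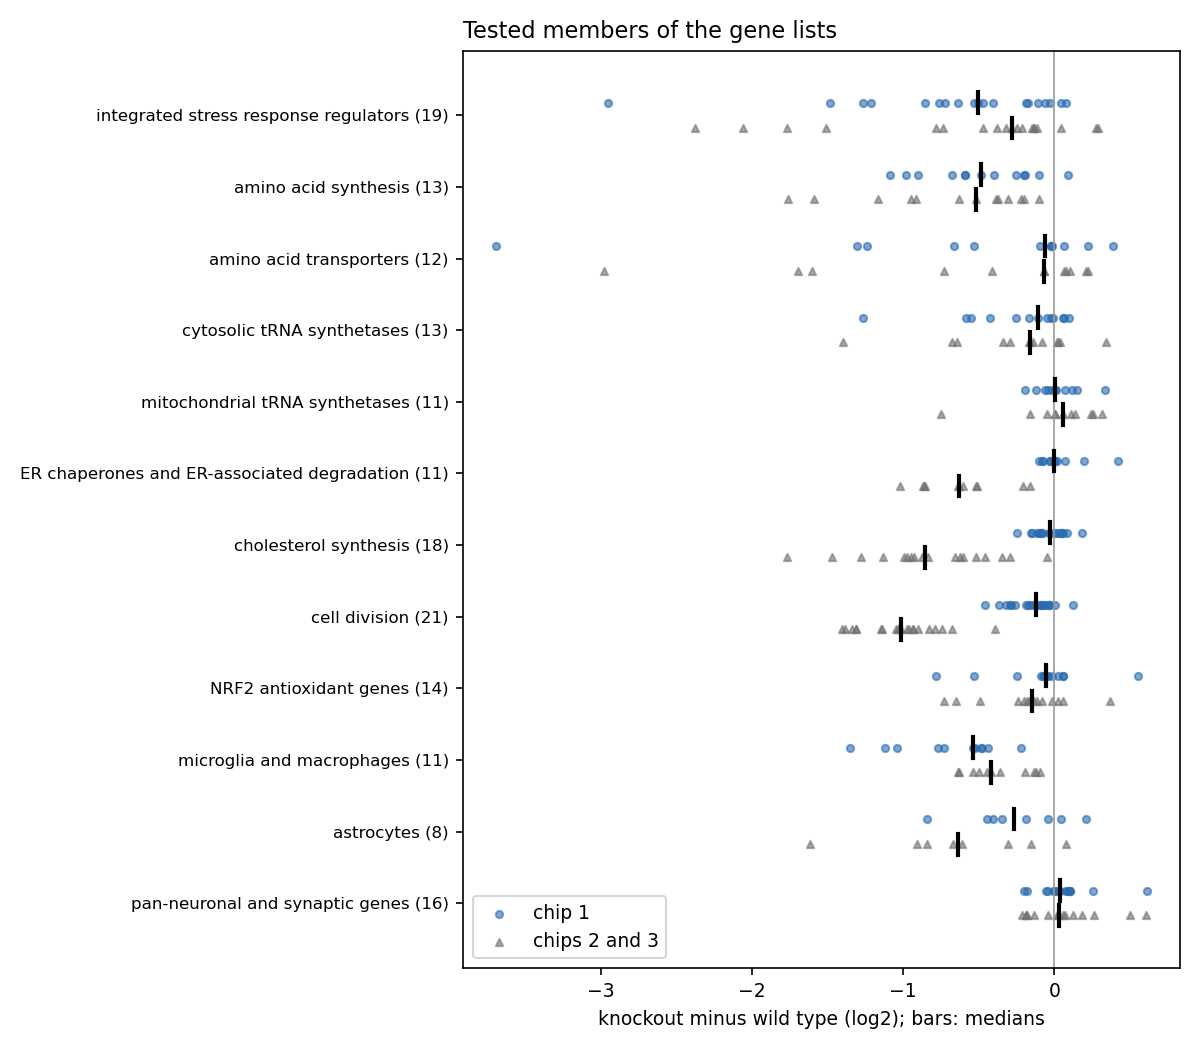
Log2 difference, knockout minus wild type (horizontal axis), of each tested member of 12 gene lists, on chip 1 as circles and on chips 2 and 3 as triangles, with bars for the medians and the number of members tested in parentheses. The median of the stress response list is -0.51 on chip 1 and -0.28 on chips 2 and 3, and that of cholesterol synthesis -0.03 and -0.85.

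Antioxidant genes were not called on chip 1. Of 14 targets of NRF2, the factor that controls thiol and NADPH supply, none passed, and the closest was Slc48a1 (-0.53, adjusted p = 0.0623). Hmox1, which degrades heme, gave -0.78 (adjusted p = 0.366), while the glutathione synthesis gene Gclm gave -0.13 (adjusted p = 0.802). Nqo1 was detected on fewer than 4 arrays and was not tested. Of 18 glutathione genes none passed (median -0.10). On chips 2 and 3, 7 of these 18 (median -0.26) and 3 of the 14 NRF2 targets were called lower and none higher, against 9.77% lower over all genes. Cdkn1a, a p53 target, gave 0.32 (adjusted p = 0.302).

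The labelled cell type was checked against its markers. Of the 19 pan-neuronal and synaptic genes on the array 16 were detected on at least 4 arrays, with a median difference of 0.03 and none called, the largest being Nefm at 0.61 (adjusted p = 0.405). Of 16 microglia and macrophage genes on the array 11 were tested, and all 11 differences were below 0 with a median of -0.54, but none was called. Their summed linear levels ran from 4799 to 6119 on the wild-type arrays and from 1990 to 5621 on the knockout arrays, and C1qa gave -1.12 (adjusted p = 0.396). The summed astrocyte level ran from 11287 to 14688 in wild type and from 9119 to 13380 in knockout, over 8 tested of 13 genes on the array, with a median of -0.27 and none called. Of 6 choroid plexus genes only 2 were tested, neither called, with Aqp1 at 1.11 (adjusted p = 0.601), and of 13 endothelial and pericyte genes 3 were tested and none called. These counts are for chip 1. On chips 2 and 3, 5 of the 8 astrocyte genes (median -0.64) and 4 of the 11 microglia and macrophage genes (median -0.42) were called lower and none higher. Over all genes 9.77% were called lower there. Of the 16 pan-neuronal and synaptic genes 2 were called higher there and none lower, where 8.28% of all genes were called higher. In bulk RNA, fewer cells of a type and less RNA per cell cannot be told apart, and the part of these cells in the called genes was not tested.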

How the data were processed

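Illumina mouse Ref-8 arrays were read for 24 samples, and per the file headers the average bead intensity and the detection fraction per probe came from BeadStudio 1.5.1.3, not normalized. Bead numbers per probe, deposited beside them, were used only to describe probes. The deposited log2 values, made with limma per the submitters' processing notes, equal the quantile-normalized log2 intensity of all 24 arrays and were used as an alternative and to name probes. Scanner settings are not given by the labels or headers used here.

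Computed here: background was removed with normexp, its mean and SD read from the quantiles of the detection values because a bright control inflates the default estimate (SD 214 to 302 against 17.6 to 20.2 on chip 1), an offset of 16 was added, and the 8 arrays were quantile-normalized and put on the log2 scale. A probe was kept if detected at p under 0.05 on at least 4 of the 8 arrays, and a gene was read by its brightest kept probe. Of 23983 deposited probes 20915 have 1 gene symbol, 1 has several and 3057 have none, and 20901 matched the RefSeq table of GRCm38.p6. This left 8269 genes, tested with limma 3.58.1 (lmFit, eBayes) in R 4.3.3, with Benjamini-Hochberg adjustment and a threshold of 0.05. The repeat on chips 2 and 3 had chip as a term and the same probes. The fits were checked on simulated data.

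The members and the 32 gene lists were chosen with earlier results of these data known. Genes are named by a rule. It takes Atf4, the 15 largest differences called in each direction and up to 4 genes of each list with the smallest p. It also takes the 10 smallest p of the chip difference and a set of stress genes. Up to 5 genes called on chip 1 with the opposite sign on the other array set, called there or not, are added. Other called genes and list members are named after their values were seen. The arrays of chip 1 were not paired by replicate number in the main fit. Deviations of same-numbered arrays correlated at 0.04, 0.03, -0.11 and 0.15. With 4 arrays per genotype these values cannot decide whether same-numbered arrays were prepared together. The alternatives were other backgrounds, offsets, filters, normalizations, probe rules, array sets and array left out. No transcript region targeted by a probe was used here.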

Additional observations from a re-analysis of the deposited data

Results flagged for a closer look

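4 of 74 groups examined (37 genes, each in 2 genotypes on chip 1) had 1 array whose gap to its nearest neighbour, as a share of the group's range, was above Dixon's critical value, where about 5% are flagged by chance. For Pou6f1 the share was 0.995, from 11.34 on knockout array 1 beside 4.73 to 4.77 on the others. For Jdp2 it was 0.959 (7.63 on knockout array 2 beside 7.18 to 7.20), for Mthfd2 0.922 (10.54 on knockout array 3 beside 10.37 to 10.38) and for Ddit3 0.863 (8.60 on knockout array 4 beside 9.18 to 9.27).

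The knockout difference itself differed between chip 1 and chips 2 and 3 for the genes that follow, which are the 10 with the smallest p, those called on chip 1 and 5 others named here. It was lower on chip 1 by -3.04 for Psmd8, -1.81 for Pop4, -1.78 for Sbsn, -1.31 for H2bc6, -1.20 for Nudt19 and -1.04 for Pnmal1. It was higher on chip 1 by 1.85 for Mvd, 1.40 for Stard4, 1.35 for Slc2a6, 1.18 for Unc5b, 1.13 for Gpx8, 1.03 for Hsp90b1 and 1.03 for Srpx2, and for the 5 others by 2.60 for Aqp1, 1.53 for Phgdh, 1.23 for Psat1, 1.13 for Hspa5 and 0.82 for Cdc20. Stard4, a sterol carrier, gave -0.10 on chip 1 and -1.47 on chips 2 and 3 (adjusted p = 0.000463). Unc5b, a netrin receptor, gave -0.03 and -1.17 (adjusted p = 0.000355), the hexose carrier Slc2a6 -0.26 and -1.51 (adjusted p = 0.000797), Gpx8 -0.21 and -1.27 (adjusted p = 0.000797) and the histone gene H2bc6 -0.20 on chip 1 (adjusted p = 0.000725 for the difference), while on chips 2 and 3 it was detected on 4 of 4 knockout and 0 of 4 wild-type arrays. Under median centring Psmd8, Mvd, Pop4, Sbsn and Aqp1 were still called. The others were not, at values of 1.23 for Stard4, 1.18 for Slc2a6, 1.00 for Unc5b, 0.97 for Gpx8, 0.86 for Hsp90b1, -1.03 for H2bc6, -1.36 for Nudt19, -1.26 for Pnmal1, 0.61 for Srpx2, 1.02 for Psat1, 0.98 for Phgdh, 1.02 for Hspa5 and 0.66 for Cdc20, so that several lost their call at about the same size. The call of Aqp1 was lost without wild-type arrays 1 and 3 (2.52, adjusted p = 0.0718) and without wild-type arrays 1, 3, 6 and 7 (2.73, adjusted p = 0.15).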

How the results depend on the processing

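All 31 genes called on chip 1 kept their direction under every alternative run, 710 values in all, and 541 of these kept the call while 169 lost it. Calls held in every alternative for 12 genes, Atf4, Atf5, Chac1, Mcat, Mgat3, Mthfd2, Pop4, Psmd8, Rps19bp1, Slc25a17, Slc7a3 and Slc7a5, and were lost most often for Ppp1r15b (17 of 23), Jdp2 (16) and Srpx2 (16). The count of 31 became 53 with all 24 arrays in the fit, 47 with the 16 untreated arrays and 16 without wild-type arrays 1 and 3, and it ran from 14 to 32 when 1 array was left out. Pou6f1 was called in 3 alternatives, the fits of 24 arrays (-4.84) and 16 arrays (-5.02) and the fit without knockout array 1 (-7.13, adjusted p = 2.12e-06). On chips 2 and 3 the count of 1493 became 211 under median centring and 673 without wild-type arrays 6 and 7, and ran from 940 (without wild-type array 8) to 1275 when 1 array was left out. The count of 387 for the chip difference became 13 under median centring, 197 without wild-type arrays 1 and 3 and 63 without wild-type arrays 1, 3, 6 and 7, and ran from 241 to 459 when 1 array was left out. With the replicate number as a block, which the main fit did not use, the chip difference gave 224 calls and chip 1 gave 21, 17 of them among the 31. Median centring moved the median of all genes to 0.13 on chips 2 and 3 and to -0.12 for the chip difference. Leaving out pairs of arrays was chosen after seeing the data, and the cause of these changes was not tested. Signal over background sets a limit, since genes detected on fewer than 4 arrays of chip 1 were not tested.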

Other observations

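Of the genes tested on chip 1, 22 split the 8 arrays into 2 sets more than 2 log2 units apart with a gap of over 0.7 of the range, a criterion chosen after seeing the data. The split followed genotype in 4 of them, Atf4, Slc7a3, Chac1 and Psmd8, and did not in 18, of which 10 had 1 array apart. Cops8, a subunit of the COP9 signalosome, read 6.20 on wild-type array 2 and 10.78 to 11.03 on the other 7 arrays. Cfl1, which encodes the actin-severing protein cofilin, read 5.00 on wild-type array 4 and 8.91 to 9.22 elsewhere. Csrp1 read 4.65 and 4.85 on wild-type arrays 2 and 3 and 8.74 to 9.85 on the other 6. On the untreated arrays of chips 2 and 3, 3 genes met the same criterion.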
